A study of Mus musculus with 32 samples.

Results

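The genes that build cholesterol and fatty acids were followed through 32 primary mouse melanomas. The list held 30 genes, each matched to 1 gene identifier among the 50600 in the deposited tables. Its rule names genes by function and uses no measured value. The list comprised 6 genes of the mevalonate steps, 11 of the squalene and sterol steps, 4 regulators and carriers, 5 genes of fatty acid synthesis and elongation, and 4 desaturases. All 30 were among the 17717 genes with enough reads to be tested.

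All mice carried an activated Nras transgene under the Tyr promoter, which is active in melanocytes (Tyr::NrasQ61K), lacked 1 copy of Cdkn2a (Cdkn2a-/+), and had loxP-flanked alleles of Cdh1, the gene of E-cadherin (Cdh1F/F). Ecad tumours came from mice with no recombinase (°/°) and ΔEcad tumours from mice with a Cre under the Tyr promoter according to the study's methods, although the labels write Tyr::NRAS/° at that place. There were 8 tumours in each of 4 groups, named Ecad male, Ecad female, ΔEcad male and ΔEcad female. The ages of the mice were not given in the sources used here.

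Polyadenylated RNA of whole tumours was sequenced to between 24036333 and 63923086 counts per tumour. In bulk tissue, fewer cells of a type and less RNA per cell cannot be told apart. The Tyr promoter restricts the deletion to the melanocyte lineage, and Cdh1 RNA had medians of 145 TPM (Ecad) and 3.29 TPM (ΔEcad) in males but did not separate the female groups, whose medians were 30.6 TPM (Ecad) and 46.7 TPM (ΔEcad). TPM is a transcript level corrected for the length of the gene and for library size. In 3 tumours other genes stood apart. The tumour labelled ΔEcad male 2 had no reads of the Y-linked gene Ddx3y, ΔEcad male 7 had 4.98 TPM of the pigment gene Dct against 7360 TPM or more in the other ΔEcad males, and Ecad female 3 had 8310 TPM of the salivary gene Bpifa2 against at most 0.53 TPM in the other Ecad females. All 3 were kept under their labels, and results that were rerun without them and moved are given both ways.

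Cholesterol is made from acetyl units through mevalonate, farnesyl diphosphate, squalene and lanosterol. Saturated fatty acids are made from acetyl and malonyl units by fatty acid synthase, and are then elongated and desaturated. Both routes are under the SREBP transcription factors, which are held in the endoplasmic reticulum by INSIG proteins while sterols are plentiful and move to the nucleus when sterols fall. In skin, sebaceous glands and fat cells also make lipids at a high rate, so a melanoma cut from skin can hold these transcripts from several cell types.

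Promoter sequences are shown for 4 members, Hmgcs1, Msmo1, Insig1 and Fasn. SREBP2 is known to act on promoters of sterol genes with the partner factors NF-Y and Sp1. Whether it does so in these tumours was not tested. Each RefSeq window (GRCm38.p6) runs from 250 bases before to 50 bases after the annotated start, 5′ to 3′ along the gene. Capitals mark the letters TCACNCCAC, a form of the sterol response element, and CCAAT, the core of the NF-Y box, on either strand. In Fasn, the box on each strand shares bases with the other. The windows lie at chr13:119690101-119690400, plus strand for Hmgcs1, chr8:64733529-64733828, minus strand for Msmo1, chr5:28071162-28071461, plus strand for Insig1 and chr11:120824498-120824797, minus strand for Fasn.
Hmgcs1: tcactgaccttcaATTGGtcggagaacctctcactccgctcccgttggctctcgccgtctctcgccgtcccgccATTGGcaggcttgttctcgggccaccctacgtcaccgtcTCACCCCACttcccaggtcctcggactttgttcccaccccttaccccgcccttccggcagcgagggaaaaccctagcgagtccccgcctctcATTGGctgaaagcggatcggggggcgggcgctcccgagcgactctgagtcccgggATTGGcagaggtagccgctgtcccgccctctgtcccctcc
Msmo1: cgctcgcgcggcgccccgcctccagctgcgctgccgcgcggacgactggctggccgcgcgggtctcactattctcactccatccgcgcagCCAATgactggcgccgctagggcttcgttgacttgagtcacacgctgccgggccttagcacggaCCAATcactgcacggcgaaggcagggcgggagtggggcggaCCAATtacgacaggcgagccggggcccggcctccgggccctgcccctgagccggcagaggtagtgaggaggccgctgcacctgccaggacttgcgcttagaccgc
Insig1: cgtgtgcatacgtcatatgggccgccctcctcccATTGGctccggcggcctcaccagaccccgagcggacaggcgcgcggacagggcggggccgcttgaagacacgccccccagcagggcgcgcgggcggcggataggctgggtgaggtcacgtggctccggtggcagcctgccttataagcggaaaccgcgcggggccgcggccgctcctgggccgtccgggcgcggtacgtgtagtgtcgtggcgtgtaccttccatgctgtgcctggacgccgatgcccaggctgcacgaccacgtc
Fasn: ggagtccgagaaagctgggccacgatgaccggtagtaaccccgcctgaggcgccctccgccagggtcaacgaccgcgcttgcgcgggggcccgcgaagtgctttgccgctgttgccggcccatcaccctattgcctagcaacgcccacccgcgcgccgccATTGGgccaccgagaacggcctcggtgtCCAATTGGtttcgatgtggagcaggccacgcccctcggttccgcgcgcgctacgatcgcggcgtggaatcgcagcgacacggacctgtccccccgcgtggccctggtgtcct

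Of the 30 members, 23 had at least 1 promoter window in the RefSeq table, and the other 7 were Fdps, Fdft1, Sqle, Stard4, Scd1, Scd2 and Fads1. The letters TCACNCCAC stood in 1 of the 23, Hmgcs1, beginning 137 bases before its start, against 1.44% of all 27025 genes with a window. CCAAT stood in 20 of 23 members (87.0%), and in 41.1% of all genes and 42.0% of the genes tested here. GGGCGG, the Sp1 box, stood in 19 of 23 (82.6%), and in 38.2% of all genes and 63.4% of those tested. Acaca, Elovl6 and Fads2 held no CCAAT. The only Acaca window (chr11:84195188-84195487) lies inside the gene, which is annotated from 84129672 to 84401651, so it does not describe the outermost promoter. Hmgcs1 held 4 copies of it, Msmo1 and Fasn 3 each and Insig1 1. Letters in a window are a description and not evidence that a factor binds there.

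The level of the members spanned 2 desaturases at the top and a cholesterol enzyme at the bottom. Scd2 had the highest median over all tumours, 488.6 TPM, followed by Scd1 with 224.7 TPM. Acly was at 110.2 TPM, Srebf1 at 109.0 TPM and Srebf2 at 91.0 TPM. The lowest medians were those of Fdps (2.77 TPM), Acss2 (4.23 TPM) and Idi1 (5.80 TPM). Fdps may share reads with processed copies elsewhere in the genome, and Scd1 and Scd2 are close paralogs, so the split of reads between such copies is uncertain. Fdps also overlaps other annotated genes, and Tm7sf2 overlaps Vps51, on the same strand, so their counts are uncertain also where strand was used. Hmgcs1, Mvd, Lss, Cyp51, Acaca, Elovl6 and Fdft1 (with Ctsb) overlap others on the opposite strand, so their counts are uncertain where strand was not used. Together the 30 genes summed to between 931 TPM in ΔEcad male 1 and 4330 TPM in ΔEcad female 3. The group medians of this sum were 2035 TPM (Ecad) and 1804 TPM (ΔEcad) for males and 2377 TPM and 2422 TPM for females, and the groups overlapped.

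The spread between tumours of 1 group was large for some members and small for others. The within-group SD on the log2 CPM scale (counts scaled to a common library total) was 1.29 for Fads2, 1.20 for Elovl6 and 1.03 for Idi1, and 0.36 for Acaca and 0.44 for Acly. The median over the members was 0.69, and over all tested genes 0.86. Elovl6 ranged 137-fold between its lowest and highest tumour in TPM, Fads2 80.2-fold and Nsdhl 55.6-fold, whereas Mvk ranged 3.85-fold.

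No member was called different in any of the 5 comparisons made (edgeR quasi-likelihood test, Benjamini-Hochberg adjusted p under 0.05 over all tested genes and an absolute log2 fold change over 1). Between ΔEcad and Ecad females, 0 of 30 members were called, where 1.2% of all genes were. At an unadjusted p under 0.05 there were 3 members of 30, against 15.3% of all genes. Between ΔEcad and Ecad males, 0 members were called and 0 had a p under 0.05, against 0.0% and 10.2% of all genes. Between females and males, 0 members were called among Ecad tumours, against 0.0508% of all genes, and 0 among ΔEcad tumours, against 0.0395%. At an unadjusted p under 0.05 there were 3 members among Ecad tumours (16.0% of all genes) and 4 among ΔEcad tumours (8.81% of all genes). For the interaction, the difference of the genotype effect between the sexes, 0 members were called, against 0.0% of all genes, and 4 had a p under 0.05, against 17.7%. DESeq2 called 2 members between the female groups, Elovl6 and Insig1, where it called 7.23% of all genes. In each of the other comparisons it called 0 members, against 0.119% of all genes between the male genotypes, 5.77% and 0.135% between the sexes in Ecad and ΔEcad tumours, and 6.91% for the interaction. The median SE of a member's log2 fold change was 0.34 in each 2-group comparison, and a call needed a shift well above that. Of genes simulated with a log2 change of 1 between the female groups 11.9% were called, and 62.7% with a change of 2. These rates are for a table of 17717 genes, and the median within-group SD was 0.86 over all tested genes and 0.69 over the members. How often a member with such a shift would be called was not tested, so the count of 0 alone sets no limit on their shifts. Between the female genotypes, log2 fold changes ran from -0.30 to 0.39 (SE 0.30 to 0.40) in the 11 squalene and sterol genes. Over all 30 members they ran from -1.34 to 1.71 (SE 0.20 to 0.59).

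The median log2 fold change of the 30 was 0.05 between the female genotypes (all genes -0.02), -0.14 between the male genotypes (all genes 0.11), 0.09 for females against males among Ecad tumours (all genes 0.05) and 0.21 among ΔEcad tumours (all genes -0.06).

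**Figure D1:**
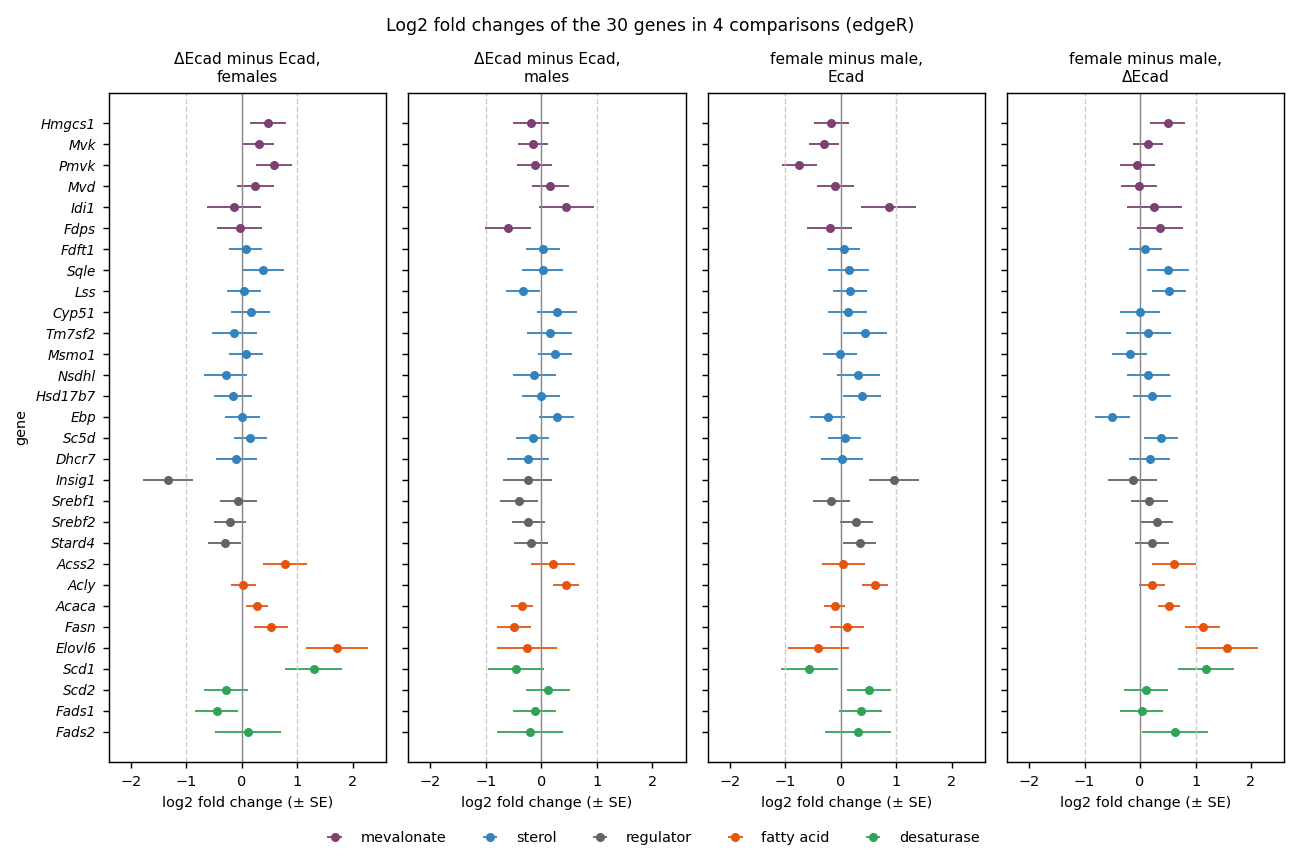
Log2 fold changes of the 30 genes (x axis, points with bars of 1 SE, edgeR fit of all 32 tumours) in 4 comparisons, 1 panel each, with genes on the y axis coloured by role and dashed lines at a log2 fold change of 1 either way. No sterol gene was called in any panel, and Elovl6, Scd1 and Insig1 lie farthest from 0 between the female genotypes, none of them called.

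Of the mevalonate and sterol steps, here named the sterol arm, no member was called between groups by either tool. Hmgcs1 (ENSMUSG00000093930, chromosome 13, 119690379 to 119708260, GRCm38), the synthase that makes HMG-CoA, ranged from 43.0 to 117.1 TPM in Ecad males (median 81.6), from 31.1 to 145.3 in ΔEcad males (median 51.9), from 23.6 to 170.2 in Ecad females (median 67.7) and from 23.0 to 227.2 in ΔEcad females (median 107.1). All groups overlapped, and the highest and the lowest tumour of all, numbers 3 and 5, were both ΔEcad females. Hmgcs1 had a log2 difference of 0.47 between the female genotypes (SE 0.32, edgeR adjusted p = 0.542).

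Sqle, the epoxidase that oxidises squalene, ranged from 11.6 to 50.8 TPM in Ecad males (median 37.1), from 11.6 to 51.2 in ΔEcad males (median 34.2), from 9.74 to 61.6 in Ecad females (median 39.6) and from 9.87 to 130.9 in ΔEcad females (median 43.5). The groups overlapped throughout, and only ΔEcad female 3 stood above the other groups by a wide margin. Among ΔEcad females the tumours that were lowest and highest in Sqle were also those lowest and highest in Hmgcs1. Pmvk, which phosphorylates mevalonate phosphate, had a median of 49.2 TPM in Ecad males (23.9 to 67.7), 29.6 in ΔEcad males (22.7 to 65.1), 23.4 in Ecad females (14.9 to 62.2) and 44.5 in ΔEcad females (22.1 to 81.3). Females minus males among Ecad tumours, it was at -0.75 on the log2 scale (SE 0.32, edgeR adjusted p = 0.235).

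Idi1, the isomerase of isopentenyl diphosphate, had the largest log2 difference of the arm, 0.86 for females minus males among Ecad tumours (SE 0.49, edgeR adjusted p = 0.396), with 1.49 to 11.9 TPM in the males and 2.94 to 23.9 TPM in the females.

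Across the sterol arm, 0 of 17 members passed an unadjusted p of 0.05 between the genotypes in either sex, against 15.3% of all genes in females and 10.2% in males. Between the sexes Pmvk alone did so, in Ecad tumours, against 16.0% of all genes there and 8.81% in ΔEcad tumours. Nsdhl and Ebp, a sterol dehydrogenase and isomerase, are on the X chromosome. Their log2 fold changes between females and males were 0.32 (SE 0.39) and -0.23 (SE 0.32) in Ecad tumours and 0.15 (SE 0.39) and -0.50 (SE 0.32) in ΔEcad tumours, with edgeR adjusted p of 0.66 or more.

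The regulators were led in level by Srebf1 and Srebf2, the genes of SREBP1 and SREBP2, which are known chiefly for fatty acid and for sterol synthesis. Srebf1 ranged from 99.6 to 314.8 TPM in Ecad males (median 137.3), from 71.4 to 132.9 in ΔEcad males (median 90.8), from 64.2 to 268.8 in Ecad females (median 98.1) and from 62.3 to 255.2 in ΔEcad females (median 109.9). Srebf2 ranged from 41.5 to 225.6 TPM in Ecad males (median 84.8), from 17.4 to 123.2 in ΔEcad males (median 70.0), from 80.0 to 171.7 in Ecad females (median 106.1) and from 57.1 to 232.6 in ΔEcad females (median 85.5). The groups overlapped for both genes. The ratio of Srebf1 to Srebf2 in TPM ranged from 0.441 in an Ecad male to 4.37 in a ΔEcad male, and Srebf1 exceeded Srebf2 in 7 of 8 Ecad males and 6 of 8 ΔEcad males, and in 3 of 8 Ecad females and 5 of 8 ΔEcad females. Srebf1 overlaps Rai1 on the opposite strand, and Srebf2 holds a microRNA gene, so both counts are uncertain to that extent.

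Insig1 (ENSMUSG00000045294, chromosome 5, 28071363 to 28078662, GRCm38), the sterol-sensing retention protein and itself a known SREBP target, ranged from 21.8 to 122.8 TPM in Ecad males (median 62.9), from 12 to 92.5 in ΔEcad males (median 45.7), from 19.7 to 332.6 in Ecad females (median 80.5) and from 16.1 to 99.7 in ΔEcad females (median 49.1). The Ecad females reached highest, with 3 tumours above every ΔEcad female, but the groups overlapped. ΔEcad minus Ecad in females, it differed by -1.34 on the log2 scale (SE 0.45, edgeR adjusted p = 0.104; DESeq2 -1.30, adjusted p = 0.0486). The value of 332.6 TPM came from Ecad female 3, the tumour with salivary transcripts, in which Hmgcs1 (33.6 TPM) and Sqle (16.4 TPM) were low. It was -0.69 (edgeR adjusted p = 0.466) once this tumour was left out. Between Ecad females and males it was 0.96 (SE 0.45, edgeR adjusted p = 0.28), and 0.32 without Ecad female 3. Stard4, a sterol carrier, ranged from 7.94 to 44.6 TPM over all tumours.

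**Figure D2:**
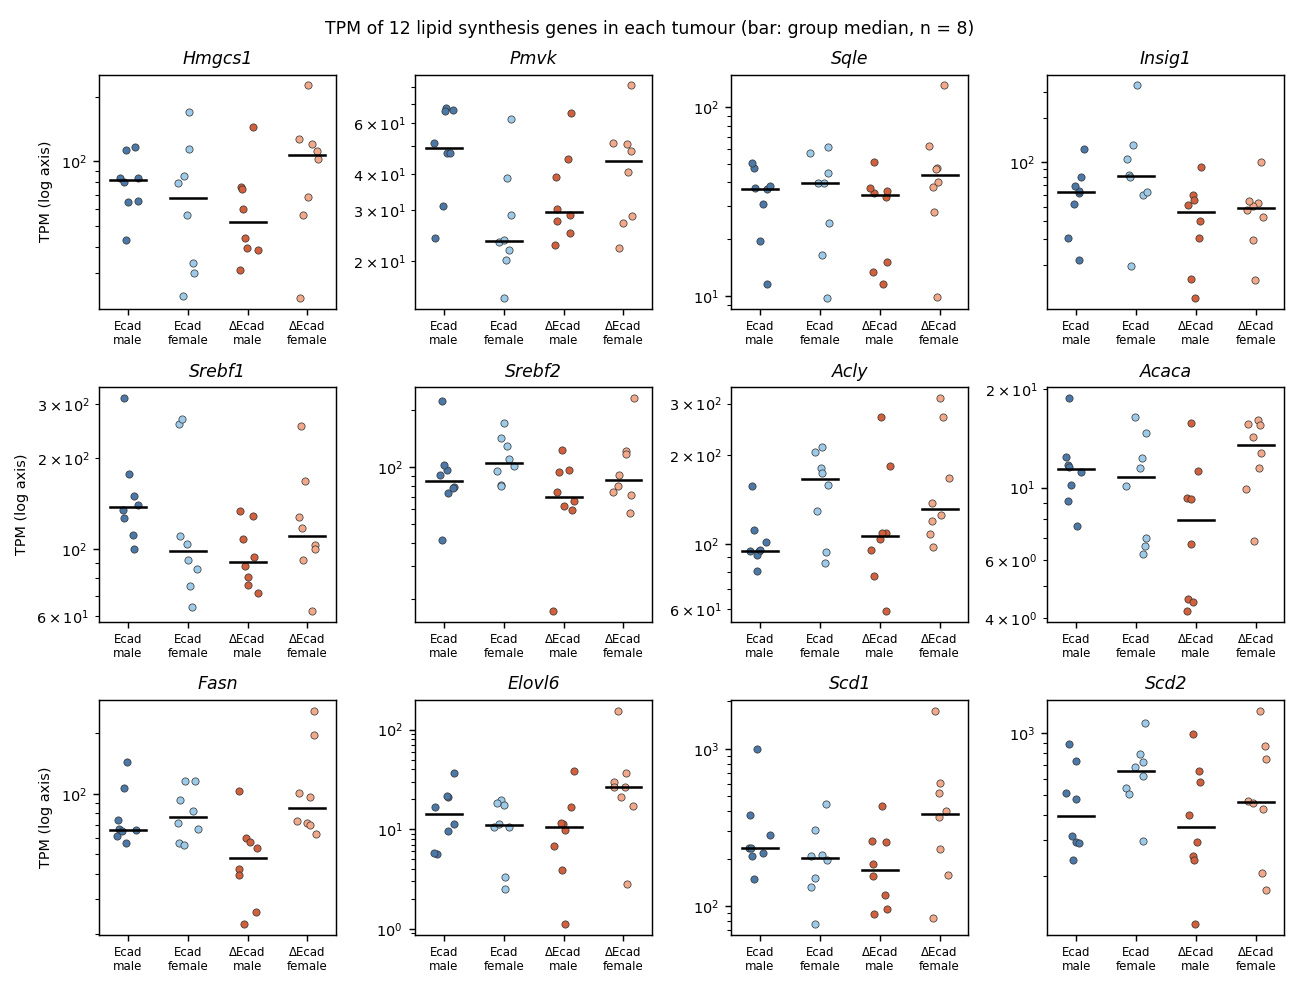
TPM on a log axis (y) of 12 members in each tumour by group (x), with a bar at the group median (n = 8). The groups overlap for every gene shown, and single tumours stand high for Insig1 (332.6 TPM in Ecad female 3), Elovl6 (153.8 TPM in ΔEcad female 2) and Scd1 (1742 TPM in ΔEcad female 7).

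The fatty acid genes and Scd1 held most of the small p-values. In ΔEcad tumours, 3 of the 5 fatty acid genes (Fasn, Elovl6 and Acaca) and Scd1 had an unadjusted p under 0.05 with higher values in females, and the same 4 had one for the interaction. These 4 were singled out by their p-values, and they are 13.3% of the 30 members in each of the 2 comparisons. Over all genes, 3.32% were higher in ΔEcad females than in ΔEcad males at that level, and 10.7% had a higher interaction, near the share of the members. The interaction contains the sex difference in ΔEcad tumours, so it adds no independent evidence, and none of the 4 passed adjustment.

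Fasn (ENSMUSG00000025153, chromosome 11, 120805846 to 120824547, GRCm38), fatty acid synthase, ranged from 56.9 to 143.3 TPM in Ecad males (median 66.2), from 22.6 to 103.4 in ΔEcad males (median 47.9), from 55.6 to 116.2 in Ecad females (median 76.6) and from 63.3 to 258.3 in ΔEcad females (median 84.8). Of the 8 ΔEcad males, 7 lay below every ΔEcad female. These 7 included ΔEcad male 2 (25.8 TPM), whose sex label is in doubt. Females exceeded males among ΔEcad tumours by 1.13 on the log2 scale (SE 0.31, unadjusted p = 0.000989, edgeR adjusted p = 0.484), and 0.76 without ΔEcad female 7. The genotype effect was 0.53 (SE 0.31) in females and -0.49 (SE 0.31) in males, and the interaction was 1.02 (SE 0.43, edgeR adjusted p = 0.205), and 0.65 without that tumour.

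Elovl6 (ENSMUSG00000041220, chromosome 3, 129532355 to 129638495, GRCm38), the elongase of saturated chains, ranged from 5.62 to 36.6 TPM in Ecad males (median 14.1), from 1.12 to 38.4 in ΔEcad males (median 10.4), from 2.48 to 19.8 in Ecad females (median 10.98) and from 2.81 to 153.8 in ΔEcad females (median 26.4). Of the 8 ΔEcad females, 6 lay above every Ecad female. These groups differed by 1.71 on the log2 scale (SE 0.56, edgeR adjusted p = 0.0962; DESeq2 1.79, adjusted p = 0.0219). It rested in part on single tumours, being 0.95 (edgeR adjusted p = 0.482) without ΔEcad female 2 and 1.88 (edgeR adjusted p = 0.0425, a call) without ΔEcad female 5, the lowest of its group, where the same fit called 3.67% of all genes. The interaction was 1.97 (SE 0.78, edgeR adjusted p = 0.17), and 1.21 without ΔEcad female 2.

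Acly makes cytosolic acetyl-CoA from citrate. It ranged from 80.6 to 156.9 TPM in Ecad males (median 94.9), from 59.1 to 270.7 in ΔEcad males (median 106.5), from 86.2 to 213.6 in Ecad females (median 166.2) and from 97.5 to 313.5 in ΔEcad females (median 131.7). Females against males among Ecad tumours gave a log2 difference of 0.62 (SE 0.23, edgeR adjusted p = 0.177). Acaca, which makes malonyl-CoA, had medians of 11.4 TPM in Ecad males (7.64 to 18.8), 7.96 in ΔEcad males (4.20 to 15.7), 10.8 in Ecad females (6.25 to 16.4) and 13.5 in ΔEcad females (6.87 to 16.0). Its log2 fold change between ΔEcad females and males was 0.51 (SE 0.20, edgeR adjusted p = 0.503). Acss2, which makes acetyl-CoA from acetate, ranged from 0.54 to 16.5 TPM over all tumours and overlaps other genes, so its count is uncertain.

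Scd1 (ENSMUSG00000037071, chromosome 19, 44394455 to 44407879, GRCm38), the stearoyl-CoA desaturase that is abundant in fat and sebaceous glands, ranged from 148.3 to 990.9 TPM in Ecad males (median 235.3), from 89.1 to 434.6 in ΔEcad males (median 170.6), from 76.9 to 448.2 in Ecad females (median 202.6) and from 83.9 to 1742 in ΔEcad females (median 385.3). Of the ΔEcad females, 3 of 8 lay above every Ecad female. The log2 fold change between the female genotypes was 1.30 (SE 0.51, edgeR adjusted p = 0.183), and 0.54 without ΔEcad female 7. Between ΔEcad females and males Scd1 differed by 1.19 (SE 0.51, edgeR adjusted p = 0.539), and 0.43 without ΔEcad female 7. The interaction was 1.75 (SE 0.72, edgeR adjusted p = 0.185), and 1.00 without that tumour.

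Scd2, the paralog of Scd1 that is known from brain and developing skin, ranged from 240.4 to 889.6 TPM in Ecad males (median 394.0), from 116.5 to 995.2 in ΔEcad males (median 346.8), from 296.9 to 1123 in Ecad females (median 652.0) and from 170.9 to 1290 in ΔEcad females (median 462.4). Its log2 fold change between the female genotypes was -0.29 (SE 0.39, edgeR adjusted p = 0.819). Scd1 made up 13.3% to 33.5% of the summed TPM of both genes in Ecad females and 15.5% to 89.4% in ΔEcad females. It exceeded Scd2 in 6 tumours, Ecad male 5, ΔEcad males 1 and 3, and ΔEcad females 1, 2 and 7. Fads1 and Fads2, desaturases of polyunsaturated chains, ranged from 35.2 to 228.6 TPM and from 4.79 to 384.2 TPM over all tumours, with both extremes in ΔEcad male 1 and ΔEcad female 3.

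Some tumours that were highest in a member were also highest in markers of other cell types. The summed TPM of 7 adipocyte markers (Adipoq, Plin1, Lep, Cidec, Fabp4, Retn and Cfd) ranged from 27.5 to 4670 in Ecad males, from 70.3 to 1580 in ΔEcad males, from 8.58 to 639 in Ecad females and from 3.50 to 6710 in ΔEcad females, with all 7 detected in each group. Its highest value was in ΔEcad female 7 and the next in Ecad male 5, the same tumours that were highest in Scd1. The sum of 7 keratinocyte markers had a median of 4630 TPM in Ecad males, 470 in ΔEcad males, 1.29 in Ecad females and 6620 in ΔEcad females, and the sum of 7 sebaceous gland markers had medians of 147, 14.0, 1.10 and 129 TPM in the same order. Both were highest in ΔEcad female 2, the tumour with the highest Elovl6 and Pmvk. In the tumour with the least keratinocyte signal of each group, Krt5 and Krt15 were at 0. With keratinocyte, adipocyte and melanocytic marker scores as covariates, the log2 fold change between the female genotypes was 0.77 for Elovl6 and 0.51 for Scd1, and -1.21 for Insig1. For Fasn the log2 fold change between ΔEcad females and males was then 1.04, and that of Pmvk between Ecad females and males was -0.16.

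The sterol genes varied together between tumours of the same group. This was described by the correlation, over the 32 tumours, of each tumour's deviation from its group mean in log2 CPM. The mean Pearson r over the 136 pairs of sterol arm genes was 0.433, and 129 of these pairs were positive. Over all 435 pairs of members the mean was 0.31, and over all pairs of tested genes 0.00528. All points share library depth and the makeup of the tumours, so these values are given as a description. The same sharing limits the permutation p-values of the 13 pairs tested. The closest pairs were Cyp51 with Sqle (r = 0.862), Cyp51 with Fdft1 (r = 0.854) and Scd2 with Fads2 (r = 0.842). Msmo1, a sterol methyl oxidase, had the highest mean r with the other members (0.489), followed by Sqle (0.482) and Fdft1 (0.455), the squalene synthase. The lowest were Srebf1 (0.0483) and Ebp (0.119).

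The fatty acid genes varied together less closely than the sterol arm. Their mean r with one another was 0.214 over 10 pairs, 9 of them positive, against 0.00528 over all pairs of tested genes. With the desaturases it was 0.0676 over 20 pairs, 12 of them positive. The desaturases fell into Scd2, Fads1 and Fads2 on one side and Scd1 on the other, whose lowest r within the role was -0.0944. Elovl6 ran against Srebf1 (r = -0.503) and Fads2 (r = -0.393).

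**Figure D3:**
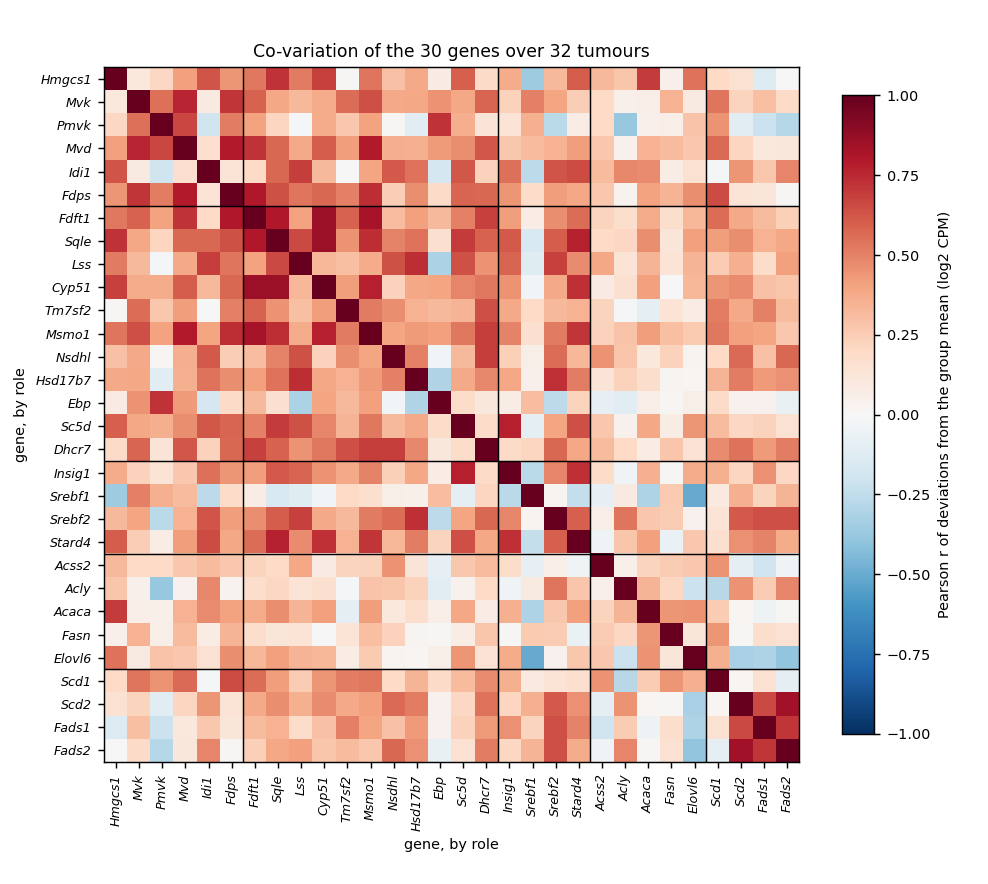
Pearson r of deviations from the group mean (colour, blue negative and red positive) for each pair of the 30 genes over 32 tumours, ordered by role with black lines between roles. The mevalonate and sterol genes make a mostly red block with a mean r of 0.433, and Scd2, Fads1 and Fads2 make a small red block that Scd1 does not share.

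For 13 gene pairs this relation was tested by permuting tumours within groups, 100000 times and two-sided, with Benjamini-Hochberg adjustment over the 13. Of these pairs, 3 passed. Hmgcs1 and Sqle had r = 0.725 and Spearman's rho = 0.694 (permutation p = 7e-05 and 6e-05, adjusted 0.00091 and 0.00078). The r was positive in all 4 groups, from 0.47 in ΔEcad males to 0.92 in ΔEcad females, and was 0.555 once the 2 tumours farthest from the Hmgcs1 median were left out.

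Hmgcs1 and Mki67, a marker of dividing cells, had r = 0.654 and rho = 0.543 (permutation p = 0.00083 and 0.00363, adjusted 0.00539 and 0.0236). By group, r was 0.812 and 0.779 in males and females with Ecad, 0.79 in ΔEcad females and -0.124 in ΔEcad males. Without the 2 farthest tumours r was 0.426 and the adjusted permutation p 0.166, so the call rests on those tumours. Without the 3 tumours named as standing apart, r was 0.746.

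Scd1 and Adipoq, the adiponectin gene of fat cells, had r = 0.55 and rho = 0.489 (permutation p = 0.00408 and 0.00844, adjusted 0.0177 and 0.0366). The r was positive in all 4 groups, from 0.214 in ΔEcad males to 0.765 in ΔEcad females. Without the 2 farthest tumours it was 0.397 with an adjusted permutation p of 0.166, so this call too rests on those tumours.

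**Figure D4:**
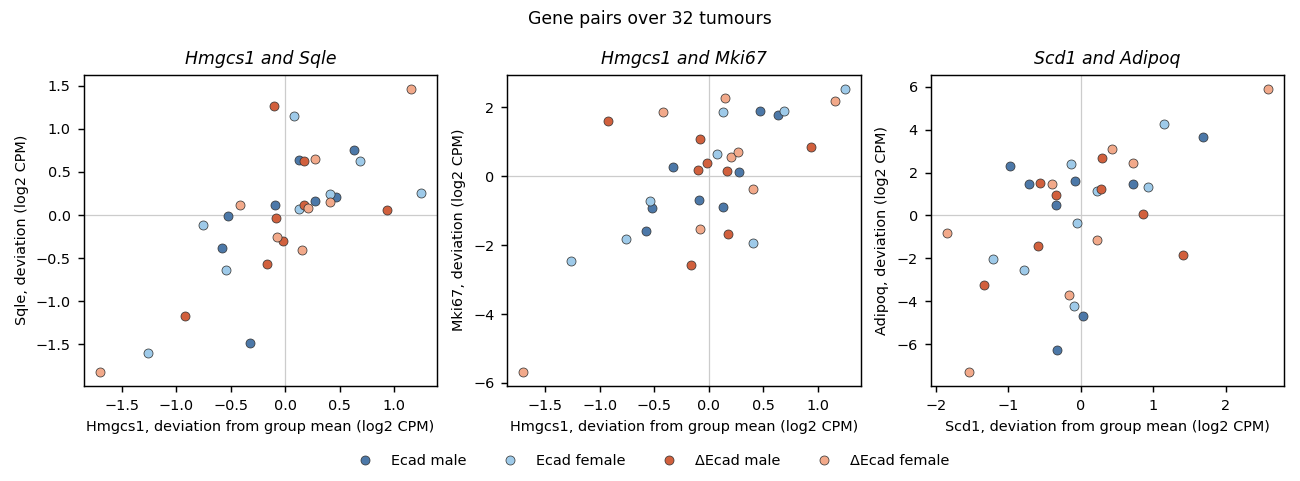
Deviations from the group mean in log2 CPM of 2 genes per panel, 1 point per tumour coloured by group, for Hmgcs1 with Sqle (r = 0.725), Hmgcs1 with Mki67 (r = 0.654) and Scd1 with Adipoq (r = 0.55). The ΔEcad female with the lowest Hmgcs1 deviation also has the lowest of all in Sqle and Mki67, and the ΔEcad female highest in Scd1 is the highest in Adipoq.

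The other 10 pairs did not pass. Within the sterol arm and its regulators, Hmgcs1 had r = 0.374 with Insig1 (adjusted permutation p = 0.139) and r = 0.322 with Srebf2 (adjusted permutation p = 0.139). For Insig1 the groups differed in value, with 0.848 in Ecad males and 0.922 in ΔEcad females but -0.0105 in Ecad females. Without the 3 tumours standing apart, Ecad female 3 among them, r was 0.606 (adjusted permutation p = 0.00524). Fasn had r = 0.443 with Scd1 (permutation p = 0.0395, adjusted 0.128), 0.263 with Srebf1 (adjusted permutation p = 0.331) and 0.205 with Acly (adjusted permutation p = 0.46). Between the arms, Hmgcs1 and Fasn had r = 0.0513 (adjusted permutation p = 0.912). Scd1 and Scd2 had r = 0.0225 (adjusted permutation p = 0.912), with -0.492 in ΔEcad females and 0.656 in Ecad females. Fasn and Awat2, a wax synthase of sebaceous glands, had r = 0.0341. Scd2 and Dct had r = 0.254, and Hmgcs1 and Krt14, a basal keratin, 0.138. Their adjusted permutation p was 0.402 or more.

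As a description over the same 32 deviations, the members split in their relation to markers. With Awat2, 5 members had an r of -0.5 or lower (Srebf2, Acly, Scd2, Fads1 and Fads2), where 4.5% of all tested genes did. Pmvk (0.54) alone had 0.5 or higher, where 9.52% of all tested genes did. Awat2 was low in some tumours. All 7 sebaceous gland markers together summed to a median of 1.10 TPM in Ecad females. In the lowest tumour of each group they summed to 0.34 to 0.78 TPM. Deviations of Awat2 are uncertain at such levels. With Adipoq, Acly had the lowest r (-0.568) and alone was at -0.5 or lower, where 1.6% of all tested genes were. Scd2 (-0.485) and Fads2 (-0.476) were also negative. Scd1 (0.55) alone had 0.5 or higher, where 6.07% of all tested genes did. With Mki67, Hmgcs1, Acaca (0.53) and Elovl6 (0.562) had an r of 0.5 or higher, where 6.71% of all genes did, and Srebf1 was at -0.711. With Dct, 28 of 30 members had a positive r, with a median of 0.222 against 0.00252 over all genes, and Msmo1 was the highest (0.53, rho = 0.367). ΔEcad male 7 had 4.98 TPM of Dct and the lowest Msmo1 (18.7 TPM). How far these values depend on that tumour was not tested, since they were not computed without it. With Krt14, Pmvk (r = 0.631) alone had 0.5 or higher, where 8.45% of all tested genes did, and Fads2 had the lowest r (-0.494).

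Single tumours were extreme in many members at once. On the log2 CPM scale, ΔEcad male 7, the tumour nearly without pigment markers, was below the mean over all tumours in 30 of 30 members and lowest of all in 5. ΔEcad female 6 was above the mean in 29 members. ΔEcad female 3 was highest of all in 5, in TPM among others in Hmgcs1, Sqle, Cyp51, Srebf2 and Scd2. ΔEcad male 1 was lowest in 7, with 1.02 TPM of Lss, 2.58 TPM of Nsdhl and 2.42 TPM of Hsd17b7, yet highest of all in Ebp (136.9 TPM). In ΔEcad female 5, the lowest in Hmgcs1 and with 0.28 TPM of Mki67, Srebf1 was at 255.2 TPM, the highest of its group.

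Another 29 genes of the pathway were followed, for SREBP processing, isoprenoid and sterol steps, sterol handling and fatty acid use. None was called in any comparison by the edgeR test, and some had an unadjusted p under 0.05. These were 3 between the female genotypes (10.3%, against 15.3% of all genes), 1 between the male genotypes (3.45%, against 10.2%), 4 between the sexes in Ecad tumours (13.8%, against 16.0%), 5 between the sexes in ΔEcad tumours (17.2%, against 8.81%) and 6 for the interaction (20.7%, against 17.7%). Thrsp, a lipogenic nuclear protein of fat and liver, had a median of 0.595 TPM in Ecad females (0 to 6.41), 5.59 in ΔEcad females (0 to 150.1), 6.36 in Ecad males (0.53 to 56.0) and 1.83 in ΔEcad males (0.35 to 9.35). Between the female genotypes it differed by 4.15 on the log2 scale (SE 1.33, edgeR adjusted p = 0.087), and its interaction was 5.52 (SE 1.76, edgeR adjusted p = 0.0845). The highest Thrsp was in ΔEcad female 7, the tumour with the most adipocyte signal. Acsl1, an acyl-CoA synthetase, had an interaction of 1.69 (SE 0.57, edgeR adjusted p = 0.0993), and Mlxipl, the carbohydrate-responsive factor ChREBP, one of 4.42 (SE 1.60, edgeR adjusted p = 0.129). Mlxipl was low, with medians of 0.28 TPM in Ecad females, 0.495 in ΔEcad females, 2.47 in Ecad males and 0.23 in ΔEcad males. It reached 12.2 TPM in Ecad male 5 and 11.4 TPM in ΔEcad female 7, the tumours with the most adipocyte signal.

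Npc2, a lysosomal cholesterol carrier, was at -0.86 on the log2 scale (SE 0.28, edgeR adjusted p = 0.484) for ΔEcad females minus males and at 0.72 (SE 0.28, edgeR adjusted p = 0.427) between the male genotypes. Between the male genotypes, Mlxipl (-2.24, SE 1.13) and Elovl1, an elongase (-0.48, SE 0.24), came next, with an edgeR adjusted p of 0.497 each. Mbtps2, a protease that releases SREBPs, had -0.72 (SE 0.31, edgeR adjusted p = 0.242) between the female genotypes and 0.71 (SE 0.31, edgeR adjusted p = 0.253) between Ecad females and males. Hsd17b12, a reductase of chain elongation, had 0.76 (SE 0.32, edgeR adjusted p = 0.235) in the latter comparison.

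In co-variation, the pathway genes nearest to the sterol arm were Acat2, the thiolase at its start, with a mean r of 0.522, and Me1, which supplies NADPH, with 0.452. Elovl7 (0.375), Acsl3 (0.256) and Cyb5r3 (0.246), which passes electrons to sterol enzymes, followed. The farthest was Abcg1, a sterol exporter induced by oxysterols, with a mean r of -0.368. The oxysterol receptor gene Nr1h3 was at -0.185.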

How the data were processed

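RNA of 32 tumours was extracted and made into stranded poly(A) libraries. Per the labels and methods, the authors checked reads with FastQC 0.11.5, mapped them with STAR to GRCm38.p5 and deposited raw counts per gene and TPM. Whether the counting used strand is not given in the sources used here, so overlapping genes are uncertain. Symbols came from GENCODE on GRCm38, and promoter windows from RefSeq.

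The members and lists were chosen with earlier results of these data known. Named members were 8 chosen by role and the 4 others with the smallest unadjusted p in any comparison. Pathway genes named were the 3 with the smallest p per comparison and the 5 with the highest mean r with the sterol arm.

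Counts were tested with edgeR 4.0.16 (R 4.3.3, quasi-likelihood, TMM, filterByExpr, 1 coefficient per group), on which 62.7% of 67 genes simulated with a log2 change of 2 between the female groups were called, and 11.9% of 67 with a change of 1, in a simulated table of 17717 genes. Log2 CPM had a prior count of 1. P-values measure the spread between tumours, which are not stated to come from separate mice. Alternatives were DESeq2 1.42.0, limma 3.58.1, other scaling, filters and samples, and marker covariates. Python 3.11.15 was used.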

Additional observations from a re-analysis of the deposited data

Results flagged for a closer look

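In each of 48 sets of 8 tumours (12 members in 4 groups), the gap between the most extreme tumour and its neighbour was compared with the range of the set, with a limit of 0.526. On the TPM scale 14 sets passed it, all at the high end, and on the log2 CPM scale 0 sets did. Chance flags about 1 set in 20 where values are normal and sets independent. The 12 genes share the same tumours and the flags depend on the scale, so the 14 sets cannot be set against that rate.

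Of the sterol arm and regulators, Hmgcs1 stood high in ΔEcad male 5 (145.3 TPM, next 76.0), and Sqle, Insig1 and Srebf2 in ΔEcad female 3 (130.9, 99.7 and 232.6 TPM). Insig1 also stood high in Ecad female 3 (332.6 TPM, next 130.8), Srebf1 in Ecad male 3 (314.8 TPM, next 177.0) and Srebf2 in Ecad male 7 (225.6 TPM, next 103.4). Ecad male 7 was also high in Acly (156.9 TPM) and Acaca (18.8 TPM).

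Of the fatty acid genes and desaturases, Fasn stood high in ΔEcad male 4 (103.4 TPM, next 60.6), Elovl6 in ΔEcad male 3 (38.4 TPM, next 16.6) and ΔEcad female 2 (153.8 TPM, next 37.0), and Scd1 in Ecad male 5 (990.9 TPM, next 381.2) and ΔEcad female 7 (1742 TPM, next 602.0).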

How the results depend on the processing

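The number of members called was 0 in each of the 5 comparisons under all alternatives that were run, except between the female genotypes, where DESeq2 called 2 (Elovl6 and Insig1, among 1281 of 17717 genes) and leaving out 1 tumour at a time gave 0 to 1 (Elovl6, without ΔEcad female 5, among 658 of 17934 genes). The fit of all tumours called 213 of 17717 genes there. With the tumour number as a replicate block, 0 members were called in each comparison. The same numbers do not mark a pairing, since same-numbered tumours of different groups deviated with r from -0.547 to 0.423, 18 of 48 pairs were over 0.1 and 1 of 32 tumours correlated best with its own number. The fit on only the tumours compared cannot give the interaction.

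Among the gene pairs, log2(TPM + 1) values moved Hmgcs1 with Insig1 (r = 0.483) and with Srebf2 (r = 0.542) past the threshold, and turned Scd1 with Scd2 to -0.00144. Without the 2 tumours farthest in the first gene, Scd1 with Adipoq (0.397) and Hmgcs1 with Mki67 (0.426) were no longer past it, and Fasn with Awat2 was -0.0726. With marker scores regressed out, which leaves 10 pairs, Fasn with Awat2 was -0.0556. Without the 3 tumours standing apart, an alternative chosen after seeing the data, Hmgcs1 with Insig1 passed (0.606), and Scd1 with Scd2 (-0.045) and Hmgcs1 with Fasn (-0.0252) changed sign. The cause was not tested. The lowest count of a member was 30 (Idi1 in ΔEcad male 1).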
